A study of Homo sapiens with 8 samples.

Results

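HP1a (HP1α, encoded by CBX5) was mapped by ChIP-seq in MCF10A, an established human line of breast epithelium that is not tumorigenic, in wild-type cells and in cells in which its paralog HP1b (HP1β, encoded by CBX1) had been knocked down. The comparison took every peak on chromosomes 1 to 22 of the 4 deposited HP1a peak lists. There were 2 libraries of wild type (genotype WT, no treatment) and 2 of the knockdown (genotype HP1B knock-down), which are 4 of the 8 libraries of the series and hold 273476 of its 1087904 peaks on those chromosomes. The other 4 libraries are HP1b ChIP-seq, in wild type and in HP1A knock-down cells, and were used as sets of places that HP1a peaks could meet. Apart from that, their peaks counted in finding the outermost listed position of each chromosome, and they entered an alternative fit of all 8 libraries. The labels do not say how HP1b was knocked down, how far it fell, or whether replicates 1 and 2 came from separate cultures, so p-values measure only the spread between these libraries, which may be technical. Peak lists carry no expression, so neither the knockdown nor the epithelial identity of the cells could be checked against marker genes. The lists hold no read counts either, so read depth is unknown, and where no peak is listed HP1a may still have been present.

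HP1 proteins bind histone H3 methylated at lysine 9 through their chromodomain and pair with each other through their chromo shadow domain, and they are known as builders of heterochromatin, the compact and mostly silent part of the genome. The mammalian paralogs HP1a, HP1b and HP1g (encoded by CBX3) can form mixed pairs and share many binding places. Textbook sites of heterochromatin of this kind are pericentromeric and subtelomeric repeats and the clusters of zinc finger genes on chromosome 19.

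Places where the lists of HP1a peaks differed can be seen at promoters. RefSeq windows on GRCh38.p14 give their sequence from 250 bases before to 50 after a gene's start. Of 33725 windows, 113 had a peak in both wild-type libraries and 110 of these had none in either knockdown library. Another 8 had a peak in both knockdown libraries, none of them with a wild-type peak, and no window had one in all 4. Knockdown peaks were rare in windows, with 138 (0.409%) for replicate 1 and 144 (0.427%) for replicate 2, and these lists shared only the 8. Genome-wide, 20455 of the 23112 places found in both wild-type libraries were met by neither knockdown list. Absence from the short knockdown lists was thus common and not particular to promoters. The windows below are the 2 protein-coding genes with the highest wild-type folds among those with a peak in both wild-type libraries alone (LACTB and DCT), and the 2 with the highest folds among those with a peak in both knockdown libraries alone (CDKL3 and ZNF626, shown after their values were seen because no window was shared by all 4). They are printed 5′ to 3′ on the gene's strand, with every CpG dinucleotide (CG, the pair that DNA methylation acts on) in capitals.
LACTB: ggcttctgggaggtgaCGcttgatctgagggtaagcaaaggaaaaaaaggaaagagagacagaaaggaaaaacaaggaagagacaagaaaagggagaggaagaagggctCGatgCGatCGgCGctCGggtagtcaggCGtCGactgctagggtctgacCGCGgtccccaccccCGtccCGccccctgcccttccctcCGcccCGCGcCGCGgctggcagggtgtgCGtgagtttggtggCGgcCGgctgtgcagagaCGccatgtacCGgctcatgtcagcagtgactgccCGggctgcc
DCT: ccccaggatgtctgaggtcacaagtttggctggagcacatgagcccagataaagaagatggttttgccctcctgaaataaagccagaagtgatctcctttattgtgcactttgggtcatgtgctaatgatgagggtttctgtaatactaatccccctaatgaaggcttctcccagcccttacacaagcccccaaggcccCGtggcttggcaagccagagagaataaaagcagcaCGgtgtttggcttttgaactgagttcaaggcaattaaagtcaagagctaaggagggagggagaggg
CDKL3: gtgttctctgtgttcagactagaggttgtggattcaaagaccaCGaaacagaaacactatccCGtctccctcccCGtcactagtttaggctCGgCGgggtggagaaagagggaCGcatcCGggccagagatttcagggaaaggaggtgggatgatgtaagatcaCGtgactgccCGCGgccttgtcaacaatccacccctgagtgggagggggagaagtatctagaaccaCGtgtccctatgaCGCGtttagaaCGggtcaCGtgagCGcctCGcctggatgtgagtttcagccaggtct
ZNF626: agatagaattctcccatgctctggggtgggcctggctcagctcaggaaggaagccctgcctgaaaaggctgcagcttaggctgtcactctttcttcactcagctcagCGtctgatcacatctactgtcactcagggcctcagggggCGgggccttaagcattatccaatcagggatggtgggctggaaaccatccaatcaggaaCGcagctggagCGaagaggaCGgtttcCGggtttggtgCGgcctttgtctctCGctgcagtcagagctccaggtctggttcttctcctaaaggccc

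LACTB, which encodes a beta-lactamase-like protein of mitochondria, has its window at chr15:63121611-63121910 (plus strand), with 23 CpG and peaks of fold 4.16 and 3.83 in the wild-type libraries. DCT, which encodes dopachrome tautomerase of melanin synthesis, has its window at chr13:94479633-94479932 (minus strand), with 2 CpG and folds of 3.63 and 3.53 in wild type. CDKL3, a kinase gene, has its window at chr5:134370994-134371293 (minus strand), with 17 CpG and folds of 4.16 and 4.8 in the knockdown libraries. ZNF626, a zinc finger gene, has its window at chr19:20661522-20661821 (minus strand), with 8 CpG and folds of 3.67 and 3.54 in the knockdown. LACTB is unlike the rest of its class: over all 110 windows with a peak in both wild-type libraries alone the mean was 3.37 CpG and 49% GC, over the 8 of the knockdown 10.6 CpG and 54.2% GC, and over all 33725 windows 16.9 CpG and 57.5% GC. At least 1 CpG was present in 96.4%, 100% and 96% of these windows, so the classes differ in number of CpG and not in having any.

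With HP1b knocked down, far fewer HP1a peaks were listed. Wild-type replicates 1 and 2 had 127402 and 109345 peaks on chromosomes 1 to 22, and knockdown replicates 1 and 2 had 18658 and 18071, a mean 6.45-fold lower. These peaks covered 66.5 and 57.3 Mb in wild type against 9.41 and 9.18 Mb in the knockdown (61.9 ± 6.54 and 9.3 ± 0.162 Mb, SD, n = 2 each). The groups do not overlap, and the knockdown libraries lie closer together than the wild-type ones. The exact two-sided permutation p was 0.333 for both measures. That is the smallest that 2 libraries against 2 can give, so no exact test below could go lower. In terms of the genome, HP1a peaks went from 2.32 and 1.99% of the 2872.3 Mb examined to 0.328 and 0.32%.

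The peaks that were listed in the knockdown looked much like the others in shape. Median width was 444 and 450 bases in wild type against 447 and 451 in the knockdown, and the median fold over background given by the authors' peak caller was 3.28 and 3.25 against 3.37 and 3.32. Wide peaks were an exception. Peaks of 2 kb or more made up 0.732 and 0.723% of the wild-type lists and 0.247 and 0.31% of the knockdown lists, 933 and 791 peaks against 46 and 56. The lists do not stop at the same strength, since the weakest listed peak had a −log10 p of 2.75 and 2.8 in wild type and 3.43 in both knockdown libraries. Asking a −log10 p of at least 4 of every peak left 41621 and 32677 in wild type against 10355 and 8804 in the knockdown (3.88-fold fewer), and asking at least 6 left 1548 and 1116 against 232 and 203 (6.12-fold fewer). With the strongest 18071 peaks of each library, called the equal-number lists below, the wild-type peaks were narrower (median 235 and 260 bases against 448 and 451) and had higher folds (3.94 and 3.84 against 3.38 and 3.32). Results that follow are shares of a library's own peaks, or the percent of a bin or gene body that its peaks cover. Equal-number values are given for the main shares. For most single bins and genes they are not given, and there they can differ in size or direction.

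**Figure D1:**
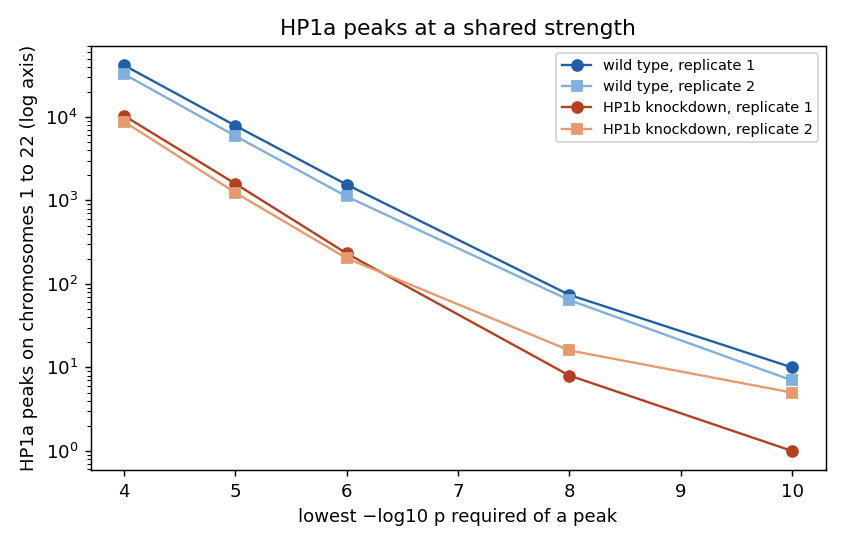
Number of HP1a peaks on chromosomes 1 to 22 (log axis) that reach a given −log10 p, for the 2 wild-type libraries (blue) and the 2 HP1b-knockdown libraries (orange). Both knockdown libraries lie below both wild-type libraries at every strength from 4 (10355 and 8804 against 41621 and 32677) to 10 (1 and 5 against 10 and 7).

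The remaining HP1a peaks were spread differently over the chromosomes. Chromosome 19, the most gene-dense chromosome and home of the large zinc finger clusters, held 3.04 and 3.12% of peak bases in wild type against 7.4 and 7.09% in the knockdown (log2 1.24, SE 0.0602, adjusted p 7.88e-23, limma), while it makes up 2.04% of the genome examined. By the same fit 7 of 22 chromosomes (31.8%) had a higher share in the knockdown and 9 (40.9%) a lower one. Shares of a library add up to a whole, so a rise on some chromosomes lowers others. The fit gave all 22 chromosomes the same SE, so its small p-values rest on a spread pooled over chromosomes. They do not measure the spread of a single chromosome between the libraries.

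The other 6 chromosomes with a higher share were 22, 16, 17, 7, 11 and 12. Chromosome 22 went from 1.43 and 1.27% to 2.25 and 2.35% (log2 0.77, adjusted p 2.03e-15). Chromosome 16 went from 2.76 and 2.89% to 4.34 and 4.47% (log2 0.64), and chromosome 17 from 2.25 and 2.05% to 3.54 and 3.09% (log2 0.62). Chromosome 7 rose from 4.71 and 4.89% to 6.79 and 7.13% (log2 0.54). The 5 chromosomes with the most protein-coding genes per Mb (19, 17, 11, 16 and 22, between 8.88 and 24.8) were all among the 7, whereas chromosome 7, with 5.89 genes per Mb, is not gene-dense.

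With all peaks chromosome 1 had the largest fall, from 15.2 and 14.1% to 11.2 and 10.6% of peak bases (log2 -0.43, adjusted p 3.05e-08). Chromosomes 4, 5, 13, 6, 3, 18, 21 and 2 also fell, with log2 values between -0.41 and -0.17. Apart from chromosome 1, with 8.28 genes per Mb, these had between 2.96 and 6.15. In the equal-number lists the same 7 chromosomes were higher, and 7 of the 9 were lower, with the largest falls on chromosomes 21 (log2 -0.69) and 4 (log2 -0.57) and a smaller one on chromosome 1 (log2 -0.21). The rise of chromosome 19 was smaller there, since its wild-type share was already 5.59 and 5.81% against 7.44 and 7.09% (log2 0.35, adjusted p 6.78e-06).

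**Figure D2:**
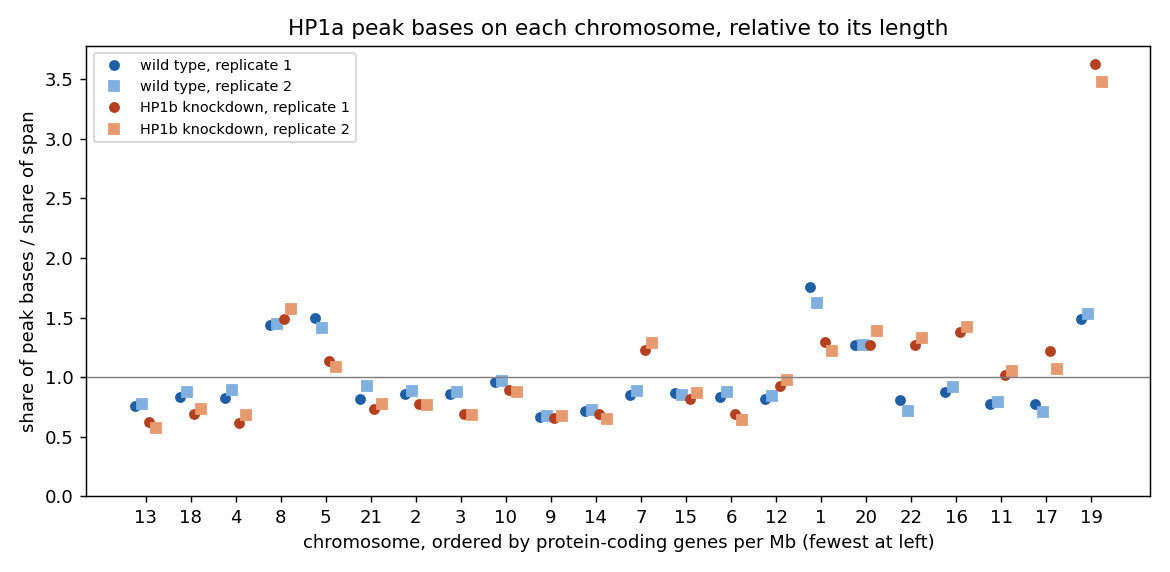
Share of HP1a peak bases on each chromosome divided by the chromosome's share of the genome examined, for each of the 4 libraries, with chromosomes ordered by protein-coding genes per Mb. Chromosome 19, at the right, holds 7.4 and 7.09% of knockdown peak bases and 3.04 and 3.12% of wild-type peak bases on 2.04% of the genome, and chromosomes 22, 16, 11 and 17 also lie higher in the knockdown.

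HP1a peaks of the knockdown lay nearer to chromosome ends. The outer 5 Mb at 39 chromosome ends (6.79% of the genome examined; the short arms of chromosomes 13, 14, 15, 21 and 22 were not used) held 7.18 and 6.61% of peak bases in wild type against 17.1 and 16.4% in the knockdown, a share 2.43-fold higher. In wild type, then, the ends held about what their length gives, and in the knockdown much more. The exact permutation p was 0.333. The share was 8.4 and 7.38% against 17.3 and 16.4% in the equal-number lists and 7.9 and 7.45% against 18.3 and 17% among peaks with a −log10 p of at least 4.

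By distance, the knockdown share was higher from the very end inward to 10 Mb. The outermost Mb held 1.21 and 1.11% of peak bases in wild type against 3.22 and 2.6% in the knockdown. The stretch from 2 to 5 Mb held 4.63 and 4.28% against 10.5 and 10.7%, and that from 5 to 10 Mb 7.76 and 7.8% against 11.7 and 11.8%. Positions over 20 Mb from an end held 69.2 and 70.2% against 57.2 and 57.5%. The groups do not overlap in any of these classes.

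**Figure D3:**
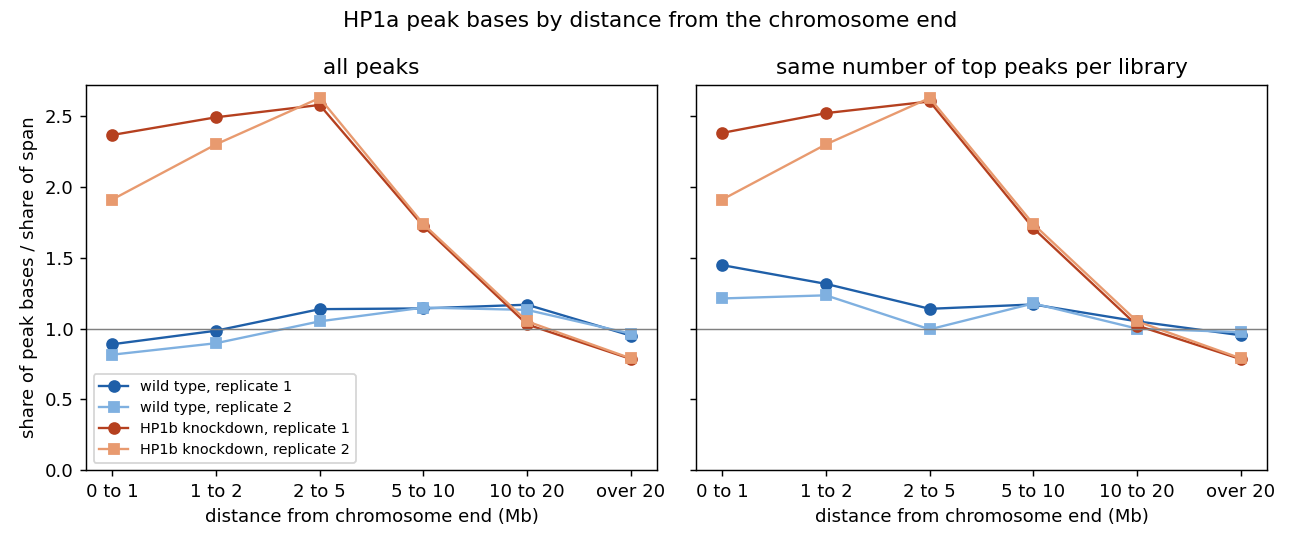
Share of HP1a peak bases in 6 classes of distance from the chromosome end divided by the share of the genome in that class, for all peaks (left) and for the strongest 18071 peaks of each library (right). The knockdown libraries lie above the wild-type libraries up to 10 Mb from the end and below them beyond 20 Mb in both panels.

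Most single ends had a higher share in the knockdown. Both knockdown libraries exceeded both wild-type libraries in relative share at 31 of 39 ends, and lay below both at 3, the high end of chromosome 1 and the low ends of chromosomes 3 and 9 (high and low refer to coordinates). For comparison, both knockdown libraries lay above both wild-type ones in 20.3% of 1 Mb bins of the whole genome and below both in 46.1%. The low end of chromosome 19 held 0.043 and 0.0277% of peak bases in wild type against 0.389 and 0.242% in the knockdown (8.92-fold). The high end of chromosome 9 went from 0.0632 and 0.0559% to 0.465 and 0.285%, and the low end of chromosome 1 from 0.0655 and 0.0804% to 0.499 and 0.416%. The end with the most peak bases in the knockdown was the high end of chromosome 8, which went from 0.572 and 0.529% to 2.01 and 1.9%.

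Chromosome ends are rich in genes, so the share was also taken within classes of 1 Mb bins by their number of protein-coding genes. Bins with 20 or more genes held 7.2 and 6.39% of peak bases in wild type against 12.3 and 11.1% in the knockdown, on 7.46% of the genome. Bins without a gene held 8.46 and 9.89% against 7.51 and 8.65%, which overlap. Within 5 Mb of an end the knockdown share was higher in every class, 1.6-fold in bins without a gene, 2.64-fold in bins with 1 to 4 and 2.61-fold in bins with 20 or more. In the equal-number lists these were 1.25-fold, 2.65-fold and 1.47-fold, and the last was 1.26-fold without chromosome 19. Farther inside it was 1.5-fold higher in bins with 20 or more genes and between 0.792-fold and 0.977-fold in the other 4 classes, although bins with 10 to 19 genes reached 1.17-fold in the equal-number lists. With chromosome 19 left out, the outer 5 Mb still held 6.99 and 6.42% against 16.9 and 16.3% of the remaining peak bases. In turn, with the outer 5 Mb of every chromosome left out, chromosome 19 was still 2.44-fold higher in the knockdown, chromosome 16 was 1.69-fold and chromosome 7 1.5-fold higher, and chromosome 1 was 0.792-fold.

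At a finer scale, relative coverage (peak bases in a 1 Mb bin per Mb of all peak bases of the library) rose in 203 of 2727 bins (7.44%) and fell in 223 (8.18%) by limma. Of 208 bins within 5 Mb of an end 85 rose (40.9%) and 5 fell, while of 1942 bins over 20 Mb from an end 57 rose and 172 fell. On chromosome 19, 33 of 57 bins rose and none fell. On chromosome 1, 12 of 229 rose and 43 fell, and on chromosome 8, 9 of 140 rose and 24 fell. The counts depend on the libraries and on strength: they were 173 and 110 in the equal-number lists, and without knockdown replicate 1 or 2 there were 456 and 485 rises and 1008 and 1004 falls. Without wild-type replicate 1 or 2 there were 127 and 121 rises and 22 and 29 falls, and with a −log10 p of at least 4 only 7 rises and 0 falls (635 bins with an unadjusted p under 0.05).

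**Figure D4:**
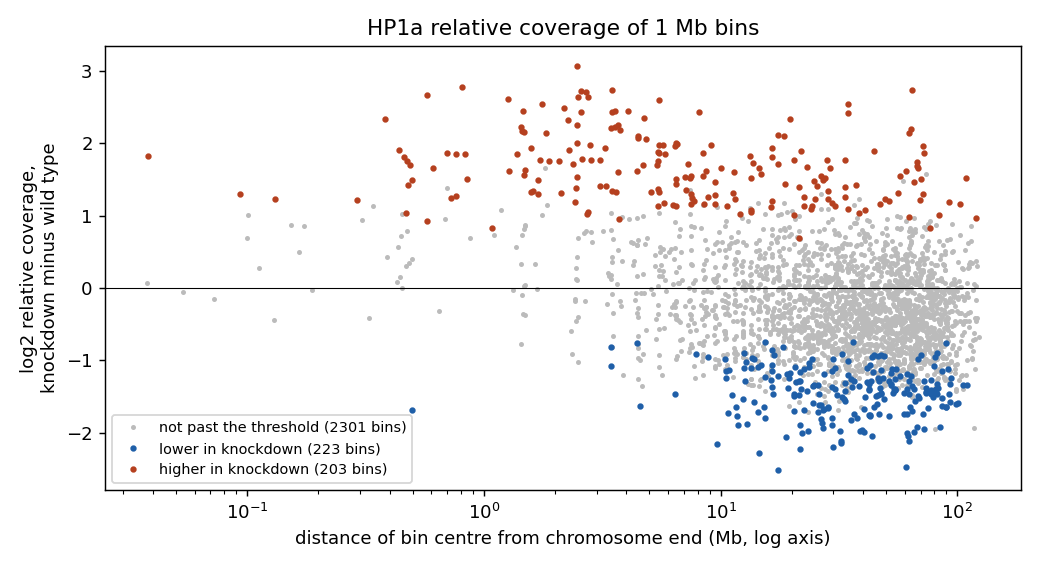
Log2 difference in relative HP1a coverage, knockdown minus wild type, of 2727 bins of 1 Mb against the distance of the bin from its chromosome end (log axis). Bins that passed the test upward (203, orange) lie at all distances and make up 40.9% of bins within 5 Mb of an end, and of the bins that passed downward (223, blue) 218 lie over 5 Mb from an end.

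The largest rise was on chromosome 2 between 2 and 3 Mb, which holds part of MYT1L, a neuronal zinc finger transcription factor gene. HP1a peaks covered 1.24 and 0.674% of it in wild type against 1.62 and 1.93% in the knockdown, so the covered length itself was higher in the knockdown (relative coverage log2 3.06, SE 0.25, adjusted p 0.0022). The bin from 70 to 71 Mb on chromosome 11, with the synaptic scaffold gene SHANK2 and the actin-binding cortactin gene CTTN, had 2.94 and 2.54% against 3.47 and 2.95% (log2 2.73, SE 0.19). The bin from 142 to 143 Mb on chromosome 8, with the adhesion receptor gene ADGRB1 and several LY6 family genes, had 8.27 and 7.11% against 8.07 and 8.1% (log2 2.72, SE 0.17). Covered length in this last bin overlaps between the groups, although the libraries as a whole differ 6.66-fold. The bin from 3 to 4 Mb on chromosome 19 was also among the 5 largest rises (log2 2.73).

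The largest fall was on chromosome 8 between 127 and 128 Mb, a bin with the oncogene MYC and POU5F1B. HP1a peaks covered 9.98 and 7.61% of it in wild type against 0.103 and 0.237% in the knockdown (log2 -2.52, SE 0.31, adjusted p 0.00499). The bin from 60 to 61 Mb on chromosome 3, inside the fragile-site gene FHIT, had 2.73 and 2.96% in wild type against 0 and 0.0208% in the knockdown. The bin from 130 to 131 Mb on chromosome 8, with ASAP1 and ADCY8, had 8.94 and 6.45% against 0.148 and 0.195%. The remaining 2 of the 5 largest falls were 116 to 117 Mb on chromosome 9 (log2 -2.22) and 34 to 35 Mb on chromosome 20 (log2 -2.20). All 5 lie over 10 Mb from a chromosome end.

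Neighbouring bins often moved together. There were 17 stretches of 4 or more adjacent bins that all rose and 5 that all fell. The longest rise ran from 2 to 10 Mb on chromosome 19, with 0.258 and 0.238% of peak bases in wild type against 1.02 and 0.781% in the knockdown. An interior stretch from 67 to 73 Mb on chromosome 7 held 0.542 and 0.67% against 1.82 and 2.27%. The stretches that fell were on chromosomes 1 (230 to 235 Mb), 5 (167 to 171 Mb) and 8 (100 to 104, 120 to 124 and 130 to 135 Mb). On chromosome 1 from 230 to 235 Mb, HP1a peaks covered 13 and 10.2% in wild type against 0.951 and 0.807% in the knockdown.

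A higher covered length, with no scaling by library, was rare. Both knockdown libraries lay below both wild-type libraries in covered length in 2634 of 2735 bins with any peak (96.3%) and above both in 13 (0.475%). Fitted without scaling, 4 bins rose and 2585 fell, with a median log2 of -2.62 against -0.34 with scaling. Of the 13 bins, 11 lie within 5 Mb of a chromosome end. The last bin of a chromosome stops at the chromosome end, so it can be far shorter than 1 Mb and its percent can rest on few peaks. This holds for 2 of the bins named here. The outermost bin of chromosome 11, which starts at 135 Mb and has no protein-coding gene, has its centre only 0.038 Mb from the end. It had peaks over 1.47 and 2.51% in wild type against 4.14 and 3.55% in the knockdown. The last bin of chromosome 4, which starts at 190 Mb and has its centre 0.093 Mb from the end, had 0.673 and 0.574% against 0.821 and 0.919%. It holds the DUX4 and FRG2 genes of the subtelomeric D4Z4 repeat region. Reads from such repeats can map to several copies, so which copy was covered is uncertain. The bin from 132 to 133 Mb on chromosome 10, with the cilium gene CFAP46, had 0.46 and 0.454% against 0.876 and 0.808%.

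Gene bodies (with 1 kb on each side) held about the same share of HP1a peak bases in both groups, 42 and 39.7% in wild type against 40.4 and 38.4% in the knockdown. A peak lay in 7610 of 19126 protein-coding genes in both wild-type libraries. Of these genes 1643 (21.6%) had a peak in both knockdown libraries too and 3586 (47.1%) had none in either. In relative coverage 157 of 8505 genes fitted rose (1.85%) and 2466 fell (29%), but 2428 of the falls are genes listed at 0 in both knockdown libraries. Among the 4865 genes with a peak in at least 1 library of each group, 110 rose (2.26%) and 38 fell (0.781%). No gene passed the limma test in the equal-number lists (835 with an unadjusted p under 0.05), with a −log10 p of at least 4 (1592), with a larger pseudocount (3326) or without the filter on genes with few peaks (2264). Without wild-type replicate 1 or 2, 28 and 24 genes rose, and without knockdown replicate 1 or 2, 847 and 1047 did. Gene values below are therefore given first as the percent of the gene body covered by peaks in each library, with relative coverage after it. These percents are of all peaks, and in the equal-number lists the order of the groups can turn. COL22A1, for example, had 5.16 and 5.86% in wild type against 13.4 and 15.1% in the knockdown there. ZNF678 kept its order, with 28.8 and 32.2% against 13.1 and 14.8%.

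Genes of neurons and synapses were a list of 27, some of them chosen with earlier results of these data known, so the values of the list are partly fixed by that choice and are given as a description of its members only. HP1a peaks covered 2.31 and 2.42% of their bodies in wild type against 1.13 and 1.12% in the knockdown. Their share of peak bases was 0.568 and 0.688% against 1.95 and 1.99%, and 0.757 and 0.857% against 2 and 1.99% in the equal-number lists.

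SHANK2 (chromosome 11, 70467854 to 71253234), a scaffold of excitatory synapses, had peaks over 4.2 and 3.34% (wild type) against 5.41 and 4.22% (knockdown) (relative coverage log2 3.07, SE 0.14, adjusted p 0.0246). DLGAP2 (chromosome 8, 737628 to 1708476), a postsynaptic scaffold gene near the chromosome end, had 1.88 and 1.9% against 2.09 and 1.71% (log2 2.71, SE 0.15). PTPRN2 (chromosome 7, 157539056 to 158587823), a receptor-type phosphatase gene of secretory vesicles, had 2.02 and 1.92% against 1.76 and 1.61% (log2 2.48, SE 0.10). At these 3 genes covered length was close in the groups, and at DLGAP2 the groups overlap.

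RBFOX3, which encodes the neuronal splicing factor NeuN, had 0.865 and 0.493% in wild type against 0.959 and 1.21% in the knockdown. Its paralog RBFOX1, which spans 5239721 to 7713340 on chromosome 16, had 4.16 and 5.01% against 2.31 and 2.6% (log2 1.83, SE 0.20). MYT1L had 1.62 and 1.56% against 0.794 and 0.962%. The synaptotagmin gene SYT3 had 0.425 and 0% against 4.51 and 7.65%. The 3 members that fell, the vesicle genes SYT1 and SNAP25 and the RNA-binding protein gene ELAVL4, were listed at 0 in both knockdown libraries, SYT1 from 0.827 and 0.891%.

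Among collagen chain genes, the difference in share of peak bases lay mostly in 1 gene. The list held 0.314 and 0.305% in wild type against 0.695 and 0.715% in the knockdown. Without COL22A1 it held 0.211 and 0.192% against 0.228 and 0.175%, which overlap. In the equal-number lists it then held 0.168 and 0.147% against 0.208 and 0.175%, which do not overlap and are higher in the knockdown. COL22A1 was left out after its values were seen. Of 30 members fitted 1 rose and 10 fell, beside 1.85% and 29% of all genes fitted. The rise was COL22A1 (chromosome 8, 138588235 to 138914041), a collagen of tissue junctions, covered over 21 and 19.8% in wild type against 13.4 and 15.1% in the knockdown (log2 2.21, SE 0.10, adjusted p 0.0246). Of the falls 9 were listed at 0 in the knockdown, among them the fibrillar collagen gene COL3A1 (3.29 and 2.78% in wild type) and the basement membrane gene COL4A1 (1.35 and 1.07%). The tenth, COL5A2, went from 2.59 and 2.59% to 0.0562 and 0.0418%.

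Zinc finger genes, well known HP1 targets in mammalian cells, had a share of peak bases that depended on how the lists were matched. The 246 ZNF genes of chromosome 19 held 0.991 and 1.07% of peak bases in wild type against 1.47 and 1.48% in the knockdown with all peaks, but 2.56 and 2.5% against 1.49 and 1.48% in the equal-number lists, where the direction is the opposite. For the 251 ZNF genes of other chromosomes it was 0.846 and 0.854% against 1.19 and 1.27% with all peaks and 2.28 and 2.11% against 1.19 and 1.27% in the equal-number lists, again opposite. The strongest wild-type peaks were thus richer in zinc finger genes than the knockdown peaks were. Of 199 ZNF genes of chromosome 19 with a peak in both wild-type libraries, 78 (39.2%) had a peak in all 4 libraries and 38 (19.1%) had none in the knockdown. Of 146 on other chromosomes these were 60 (41.1%) and 48 (32.9%). Over all genes with a peak in both wild-type libraries the shares were 21.6% and 47.1%. In relative coverage 6 rose and 32 fell of 211 fitted on chromosome 19, and 5 rose and 31 fell of 158 fitted elsewhere, with every fall listed at 0 in the knockdown. Over all genes fitted 1.85% rose and 29% fell.

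Single zinc finger genes showed both patterns. ZNF134 (chromosome 19, 57614242 to 57624724) had peaks over 47.2 and 44.2% in wild type against 10.3 and 20.7% in the knockdown, among the most covered genes of both groups (log2 1.05, SE 0.52, adjusted p 0.243). ZNF667 had 3.17 and 4.25% against 5.58 and 5.5% (log2 3.08, SE 0.49, adjusted p 0.0277), so here the covered length was higher in both knockdown libraries. ZNF549 had 34.5 and 39.7% against 0 and 4.4%. Outside chromosome 19, ZNF454 on chromosome 5 had 21.4 and 22.2% against 18.3 and 15% (log2 2.30, SE 0.20, adjusted p 0.0246) and ZNF678 on chromosome 1 had 44.6 and 44.4% against 13.1 and 14.8% (log2 1.05, SE 0.13, adjusted p 0.0246). Zinc finger genes of a cluster resemble each other, and reads shared between copies could be placed in either. The ZFP, ZSCAN and ZKSCAN genes, with 45 members, had a share 2.11-fold higher with all peaks and 1.09-fold in the equal-number lists.

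Other clustered families are given beside all genes, of which 21.6% kept a peak in all 4 libraries and 29% of those fitted fell. Clustered protocadherin genes, cell adhesion genes of neurons on chromosome 5, had a peak in all 4 libraries at 34 of the 42 members with a peak in both wild-type libraries (81%), though alpha and gamma members share their downstream exons, so 1 peak counts for several. None rose and 2 of 48 fell, PCDHB4 and PCDHB6. Of 40 olfactory receptor genes with a peak in both wild-type libraries, 6 kept one in all 4 (15%), and 15 of 52 fitted fell, near the share of all genes, all listed at 0 in the knockdown. Of 12 keratin genes with a peak in both wild-type libraries, 9 had none in the knockdown, and 6 of 16 fell. Among them was the basal keratin gene KRT14 (19.6 and 15.3% in wild type, but 0 in both equal-number wild-type lists). Keratin-associated genes had 1 fall of 2 fitted, KRTAP11-1. Of 59 potassium channel genes 3 rose, among them KCNQ1 and KCNT1, and 13 fell.

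**Figure D5:**
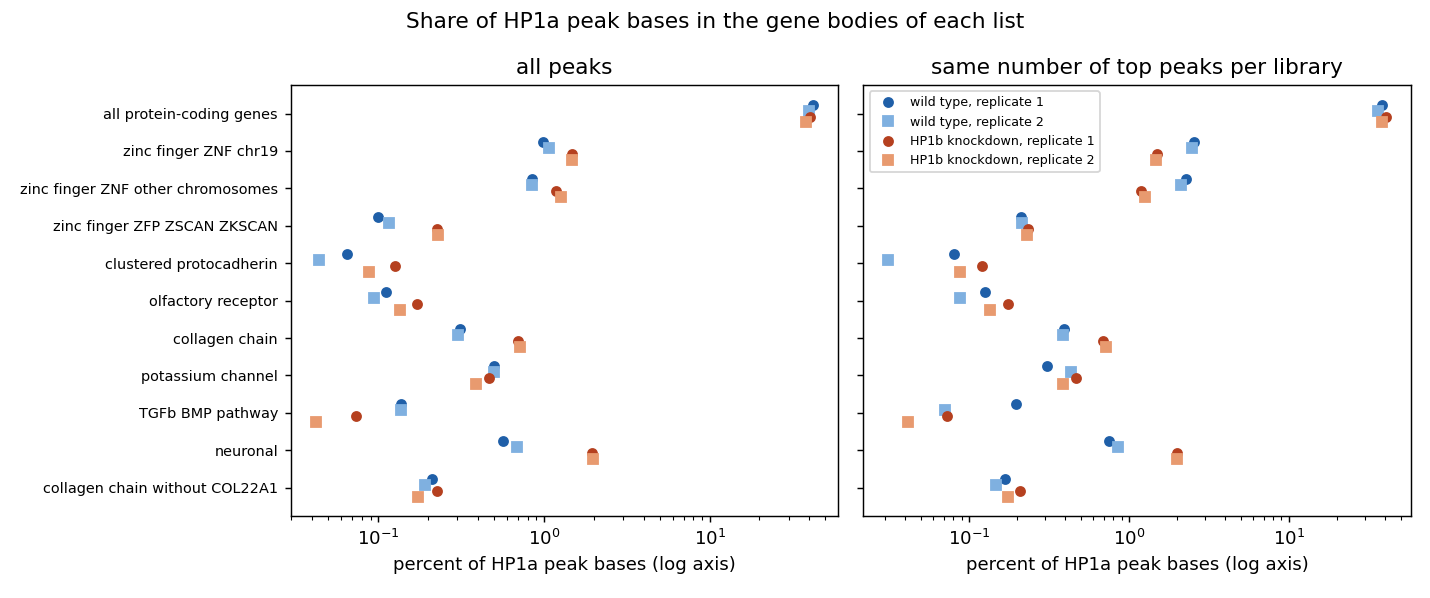
Percent of HP1a peak bases that lie in the gene bodies of each list (log axis), for all peaks (left) and for the strongest 18071 peaks of each library (right), with 1 symbol per library. Neuronal genes lie higher in the knockdown in both panels, collagen chain genes without COL22A1 overlap between the groups on the left, and ZNF genes lie higher in the knockdown on the left and lower on the right.

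TGFβ and BMP pathway genes held 0.138 and 0.138% of peak bases in wild type against 0.0739 and 0.0419% in the knockdown, while the equal-number values overlap (0.196 and 0.0705% against 0.0733 and 0.0419%). Of 26 fitted 8 fell and none rose, beside 29% of all genes fitted that fell, and all 8 had passed the filter through wild type alone, with 0 in the knockdown. They include the receptor gene TGFBR2 (1.53 and 0.782% in wild type), the signal transducers SMAD1, SMAD2 and SMAD3 (2.72 and 1.4% for SMAD3) and the ligand gene BMP7 (3.34 and 5.96%). Of 11 mesenchymal genes fitted 6 fell, again listed at 0. Among them were the transcription factor gene ZEB1 (0.552 and 0.902% in wild type) and the matrix gene SPARC (7.09 and 11%). In the equal-number lists TGFBR2, ZEB1 and SPARC were listed at 0 in both wild-type libraries too, so no fall is seen there. SMAD3 had 0.135 and 0% in those wild-type lists and BMP7 0.823 and 0.175%.

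Among genes for chromosome structure the share of falls was near the 29% of all genes fitted. Of 9 cohesin, condensin and CTCF genes fitted 3 fell and none rose, SMC2, WAPL and PDS5B, with PDS5B at 1.74 and 3.13% in wild type and 0 in the knockdown. Of 10 HP1 and heterochromatin genes fitted 3 fell, the lamin gene LMNB1, the methyltransferase gene DNMT1 and MPHOSPH8 of the HUSH silencing complex. Every fall in these lists was a gene at 0 in both knockdown libraries, which had passed the filter through wild type alone. In the equal-number lists SMC2, LMNB1, DNMT1 and MPHOSPH8 were listed at 0 in both wild-type libraries too, so no fall is seen there. The HP1 genes themselves carried few peaks. CBX1, the knocked-down gene, had 1.54 and 0% in wild type and 0 in both knockdown libraries, CBX5 had 1.13 and 0% against 0.348 and 0%, and CBX3 was listed at 0 in all 4.

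Of the remaining lists, basal epithelial genes had 4 falls of 9 fitted, luminal breast genes 1 of 5, interferon and antiviral genes 6 of 10, germline genes 4 of 10, immune genes 1 of 7, HOX genes 1 of 2, and ribosomal protein and liver genes none of 3 and 4. Over all genes fitted 29% fell. No member of these 8 lists rose, and every fall was a gene listed at 0 in the knockdown. Imprinted genes had 1 rise, the potassium channel gene KCNQ1, and 3 falls of 12. All 19 common fragile site genes, which are very long, had a peak in both wild-type libraries and 16 had one in all 4. Among these 19 CSMD1, at 1.84 and 2.08% in wild type against 0.538 and 0.55% in the knockdown, rose in relative coverage (log2 0.88), and FHIT fell.

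Among single genes with a peak in at least 1 library of each group, the 6 largest rises were C1orf94, SYT3, CFAP77, CFAP46, RIMBP2 and WSCD2. RIMBP2 (chromosome 12, 130396133 to 130716299), a presynaptic active-zone gene, had peaks over 1.1 and 0.442% in wild type against 4.04 and 2.41% in the knockdown (log2 4.71, SE 0.53, adjusted p 0.0246), and was the only one of the 6 with a peak in both wild-type libraries. The sperm flagellum and cilium genes CFAP77 and CFAP46 had 0.271 and 0% against 1.15 and 1.49%, and 0.616 and 0% against 2.37 and 1.58%. C1orf94 had 1.81 and 0% against 6.03 and 11.2%, and WSCD2 had 0 and 0.349% against 1.38 and 1.3%. In all 6 genes both knockdown libraries lay above both wild-type libraries in covered length.

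The 6 largest falls were PLXNA2, TG, FHIT, NIBAN1, NKAIN2 and RASSF5. TG (chromosome 8, 132866958 to 133134899), the thyroglobulin gene, had peaks over 15.5 and 11.8% in wild type against 0.137 and 0.192% in the knockdown (log2 -3.52, SE 0.35, adjusted p 0.0246). The semaphorin receptor gene PLXNA2 (chromosome 1, 208022242 to 208244384) had 12.3 and 7.78% against 0.087 and 0% (log2 -4.99, SE 1.05, adjusted p 0.0463). FHIT (chromosome 3, 59747277 to 61251452) had 2.82 and 2.86% against 0.0289 and 0.0488% (log2 -3.40, SE 0.39). RASSF5, a Ras effector gene on chromosome 1, had 18 and 14.7% against 0.257 and 0.206%, but in the equal-number lists it was listed at 0 in wild type and kept 0.257 and 0.206% in the knockdown, which turns its direction. Its wild-type coverage thus came from peaks weaker than the strongest 18071.

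The genes most covered in the knockdown, among those with a peak in all 4 libraries, included neighbours on chromosome 5. ZNF879, GRM6 and ZNF454 lie between 178941198 and 179035064, and GRM6, a glutamate receptor gene of retinal bipolar cells, had 7.82 and 25.7% in wild type against 15.7 and 17.7% in the knockdown. ZNF879 had 22.6 and 34.1% against 13.8 and 19.8%. GRM6 and ZNF454 overlap in position, so some of their peaks are the same. COMMD5 on chromosome 8 had 61.8 and 43% against 13.1 and 18.5%. ZNF134 and COL22A1 complete the 6.

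Single peaks were seldom found again, and how often depends on the length of the list they are set against. Of the peaks of knockdown replicate 1, 6.31% were met by at least 1 base of a peak of knockdown replicate 2, but 19.1 and 16.6% by the longer lists of wild-type replicates 1 and 2. Of the peaks of wild-type replicate 1, 18.4% were met by wild-type replicate 2, and 2.8 and 2.73% by the knockdown replicates. Among peaks with a −log10 p of at least 4, those of knockdown replicate 1 were met in 4.08% of cases by the other knockdown list and in 8.92 and 7.72% by the wild-type lists. In the equal-number lists, which remove the difference in number, libraries of a group met 6.14 to 6.42% of each other's peaks and libraries of different groups 3.43 to 4.18%. Over 2727 bins, which share mappability and gene content, Spearman's rho of relative coverage was 0.879 between the wild-type libraries, 0.641 between the knockdown libraries and 0.387 to 0.459 between groups.

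Wild-type regions were taken as the 23112 places found in both wild-type libraries. They had a counterpart in 1 knockdown library or both in 11.5% of cases (Wilson score interval 11.1 to 11.9%, for counting error only). In 1.52%, or 351 regions, the counterpart was in both knockdown libraries. The 351 regions were wider and more distal than the rest. Median width was 1690 bases, against 1120.5 for regions met in exactly 1 knockdown library and 849 for the 20455 met in neither. Of the 351 regions 24.8% lay within 5 Mb of a chromosome end, against 12 and 5.46% in the other classes. Regions in both wild-type HP1b libraries met 91.5% of them, against 69.6 and 40.4%. The part of width in these shares was not tested.

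The 6 regions with the highest fold in the weakest of the 4 libraries lay between genes. The first, chr12:31607669-31608903 on hg38, 16532 bases from DENND5B, had folds of 3.96 and 4.53 in wild type against 4.26 and 4.45 in the knockdown. A region at chr6:53558585-53560061, 13483 bases from GCLC, which encodes an enzyme subunit of glutathione synthesis, had 5.31 and 5.34 against 3.89 and 4.74. A region at chr10:112863643-112864477 lies 8274 bases from VTI1A. The other 3 are at chr1:192741280-192741564 (nearest gene RGS2), chr10:4041587-4041916 (nearest gene KLF6) and chr22:11942641-11946020 (nearest gene OR11H1, 3582171 bases away). Both HP1b libraries of HP1a-knockdown cells had a peak at all 6, and at 94.9% of all 351 regions, so this is not particular to the 6. Both wild-type HP1b libraries had a peak at each of the 6 except the region on chromosome 1.

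In the opposite direction, 1170 regions were found in both knockdown libraries, and 532 of them were met in neither wild-type library. Of these 532 regions 28.8% lay within 5 Mb of a chromosome end and 10.2% on chromosome 19. Over all 1170 these shares were 25.1 and 10.2%, so they were not particular to the 532. The 532 were met by wild-type HP1b regions in 33.6% of cases and by both HP1b libraries of HP1a-knockdown cells in 58.6%. Over all 1170 these were 55.5 and 72.9%.

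The HP1a peaks of HP1b-knockdown cells lay more often where HP1b was found in HP1a-knockdown cells. A peak of replicate 2 of the HP1b libraries of HP1a-knockdown cells met 32.1 and 32.4% of wild-type HP1a peaks and 51.9 and 51.4% of knockdown HP1a peaks, and replicate 1 met 22.9 and 25% against 38.9 and 41.6%. In the equal-number lists replicate 2 met 38.3 and 38.8% against 52.3 and 51.4%. A meeting needs only 1 base, and in those lists the wild-type peaks were narrower (median 235 and 260 bases against 448 and 451). The part of width in these shares was not tested. Replicate 1 of wild-type HP1b met 33.4 and 35.4% against 35.4 and 37.8%, but 37.9 and 41% against 35.5 and 37.8% in the equal-number lists, where the order turns. Regions of both wild-type HP1b libraries met 22 and 24.1% against 26 and 28.3%, but 27.5 and 30.9% against 26.2 and 28.3% in the equal-number lists, where the groups overlap and the mean is lower in the knockdown. The difference between the HP1b sets was not tested.

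Neighbouring peaks were farther apart in the knockdown when all peaks were taken, with another peak within 10 kb for 69.1 and 65% in wild type against 30 and 31.3% in the knockdown. In the equal-number lists the order turned, at 20.4 and 22% against 29.7 and 31.3%. With equal numbers, then, knockdown peaks lay closer together.

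Promoter windows, the sequences printed above among them, seldom held a peak. Wild-type libraries had a peak in 870 and 681 of 33725 windows and knockdown libraries in 138 and 144. The windows with a peak had a mean GC content of 50.6 and 48.9% in wild type against 54 and 53.2% in the knockdown, all below the 57.7 and 57.6% of windows without one. They held 6.24 and 4.54 CpG on average in wild type against 10.1 and 9.35 in the knockdown. In the equal-number lists the values were 48.9 and 48.3% GC against 54 and 53.2%, with 84 and 93 windows against 136 and 144. So the promoters under HP1a peaks in the knockdown were less CpG-poor than those in wild type, in both ways of matching the lists.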

How the data were processed

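HP1a ChIP-seq of MCF10A cells was compared between HP1b knockdown and wild type, 2 libraries each. Per the submitters' processing notes the tools were Trimmomatic, Bowtie2, SAMtools and MACS3, with the build hg38. Not given in the sources used here are the versions, the settings for calling peaks and whether an input was used. The deposited broad peak lists give each peak's fold over background as a ratio and its −log10 p, both made by the authors' peak caller per library, with no read counts. The deposited lists also hold peaks on X and other sequences, which were left out, so that 93.8 to 94.7% of each HP1a list was used.

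Overlapping peaks were merged, and bases were counted per chromosome, 1 Mb bin and gene body with 1 kb on each side (RefSeq, GRCh38.p14, whose chromosome coordinates are those of hg38; 19126 protein-coding genes). Bounds only were available, so exons and introns are not given. Chromosome ends are the outermost listed peak or gene, and the last bin of a chromosome stops there. Relative coverage was fitted with limma 3.58.1 (R 4.3.3, n = 2 each) on log2 of bases per Mb of peak bases plus a pseudocount, the 10th percentile of values above 0 (88.6 for bins, 5 for genes). Features needed a peak in at least 2 of 4 libraries, with Benjamini-Hochberg adjustment over all features and calls at 0.05. Chromosome shares took no pseudocount. The script was tested on simulated data. Single values were compared by exact two-sided permutation tests (SciPy 1.17.1).

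The genes named are the 6 largest rises and falls among genes with a peak in at least 1 library of each group, the 6 most covered in the knockdown, CBX1, CBX3 and CBX5, the 2 most covered in wild type of each of 24 lists, of which those that bear on a result are given, and list members that passed the test. A gene that falls under this rule is not reported here. Promoter windows on chromosome 8 were not considered for printing. The 5 largest rises and falls of bins and 6 regions follow a like rule. The members and lists were chosen with earlier results of these data known. Replicate numbers were not shown to pair the libraries (r of same-numbered deviations 0.0542 over 2727 bins). Alternatives were a −log10 p of at least 4, the strongest 18071 peaks of each library, other filters, pseudocounts, scalings, bins of 250 kb, flanks and overlaps, a replicate block, leaving out single libraries in turn, and a fit of all 8. The distance share without chromosome 19, the chromosome shares without the outer 5 Mb and the collagen list without COL22A1 were added after the data were seen. No genome sequence was used here, so peaks are given by position alone.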

Additional observations from a re-analysis of the deposited data

Results flagged for a closer look

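HP1a peaks on sequences other than chromosomes 1 to 22 and X, which the comparison did not use, made up 0.733% of the list of HP1b-knockdown replicate 1 and 0.883% of that of replicate 2, against 0.395 and 0.391% in wild type. They are given because they lie in data outside the comparison and above the level of the control libraries. In number they were 145 and 170 peaks in the knockdown and 532 and 454 in wild type. The difference in share was not tested beyond the 2 libraries per group.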

How the results depend on the processing

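The outer 5 Mb share, the gene-density share, the numbers of peaks, the wide-peak share, the GC of promoter windows and the count of chromosomes kept their direction, or stayed within 1.5 times, under every alternative run for them. With 2 libraries a group no exact test could pass a threshold, and depth is unknown. With the same number of top peaks the difference reversed in covered bases (wild type 0.838 times the knockdown), median −log10 p (-0.8), median fold (-0.545), peaks met by wild-type HP1b regions (-1.95 percentage points), peaks within 10 kb (9.31 points) and RASSF5 (log2 0.97), and 24.6% of wild-type regions were met. With a −log10 p of at least 4 it reversed in median −log10 p (-0.0398) and fold (-0.132), and 14.7% of regions were met, against 3.7% with 50% of the region covered. The difference in median width ranged from -1 to 0 bases without wild-type replicate 1 or knockdown replicate 2, against 2 bases, and regions met ranged from 5.17 to 6.55% with a library left out, since fewer libraries then define or meet a region.

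For bins, rises and falls numbered 7 and 0 with a −log10 p of at least 4, 97 and 58 with no filter, 4 and 2585 with no scaling and 312 and 678 with all 8 libraries in a single fit. The same number of top peaks gave 110 falls and 250 kb bins 961. With a library left out, rises ranged from 121 to 485 and falls from 22 to 1008. For genes, rises and falls were 0 and 0 with a −log10 p of at least 4, with the same number of top peaks, with the pseudocount multiplied by 4 and with no filter, and 57 and 4596 with no scaling. All 8 libraries gave 354 rises, and a peak in all 4 libraries 62 falls. With a library left out, rises ranged from 24 to 1047 and falls from 2 to 2468. The cause of these changes was not tested.

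Under a replicate block there were 20 rises and 0 falls of genes, while 231 bins rose and 310 fell, and 7 chromosomes rose and 11 fell. No numbered pairing is stated, so this says nothing of weaker effects.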
